A study of Mus musculus with 11 samples.

Results

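The immunity-related GTPases (IRG family) described here are Igtp, Irgm1, Irgm2, Iigp1, Ifi47, Tgtp1 and Gm4951, 7 mouse genes named by family. The probe set of each was chosen by its symbol and its level alone: each gene was read from the probe set that carries its symbol alone, and where there were several, from the one with the highest mean over all 11 arrays. Of the 7 genes, 5 had such a probe set, 1 each, so the mean decided nothing for them, and they stood among 22180 genes read in the same way. Ifi47 and Tgtp1 share their probe sets with other symbols in the probe annotation and were not analysed here. All 5 measured genes stayed when the dimmest 33.3% of genes were left out. A further list of 12 IRG genes was set beside them, 8 of which had a probe set of their own.

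IRG proteins are large GTPases that cells make in response to interferons and that defend the cell from within against vacuolar bacteria and parasites. The effectors of the GKS class, named for their nucleotide-binding motif, load onto the vacuole around a pathogen and break it open, and Iigp1 (also called Irga6), Tgtp1 (Irgb6), Ifi47 (Irgd) and Gm12250 (Irgb10) belong to them. The regulators of the GMS class, Irgm1, Irgm2 and Igtp (Irgm3), sit on the cell's own membranes and hold the effectors in their inactive state. Loading also needs the autophagy conjugation proteins and is coupled to the guanylate-binding proteins (GBPs), a related family of interferon-inducible GTPases. In blood-forming tissue, Irgm1 is known for protecting stem and progenitor cells under interferon.

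Expression was measured on Affymetrix Mouse Gene 2.0 ST arrays in CLPs (common lymphoid progenitors), from which lymphocytes descend in the bone marrow, split by the surface protein Ly-6D, which marks CLPs turning to the B lineage. C57BL/6 mice had been injected on alternate days with 50 µg of CpG1826, an oligonucleotide that activates Toll-like receptor 9, or with PBS, and the cells were sorted on day 10. The groups were Ly-6D+ CLPs after CpG (3 arrays), Ly-6D+ CLPs after PBS (2 arrays), Ly-6D- CLPs after CpG (3 arrays) and Ly-6D- CLPs after PBS (3 arrays). No group carried an altered allele. Whether a replicate was an animal or a pool of animals, and whether both populations came from the same mice, is not in the labels, so p-values measure only the spread between these samples.

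All values are log2 values that the authors made with RMA, a method that corrects background, equalises the arrays' distributions and summarises the probes of a set. The array medians lay between 3.85 and 3.96, and the small number of arrays limits the precision. Differences between groups came from limma, fitted over all 22180 genes, with 0.05 as the limit for a p adjusted by Benjamini-Hochberg over all of them. These are bulk arrays of sorted cells, in which fewer cells of a type and less RNA per cell cannot be told apart. Ly6d, the gene of the sorted protein, separated the populations in every array. In Ly-6D+ CLPs 2 of the 8 measured CLP markers had a CpG change above 0, against 51% of all genes. There 1 had an unadjusted p under 0.05, against 1443 of 22180. The mean of the 8 markers lay between 10.08 and 10.11 in Ly-6D+ arrays after PBS and between 9.95 and 9.98 after CpG. In Ly-6D- arrays it lay between 8.76 and 8.88 after PBS and between 8.17 and 8.54 after CpG. There 0 of these 8 markers had a CpG change above 0, against 49.8% of all genes, and 7 had an unadjusted p under 0.05, against 2664 of 22180. Il7r (-0.81, adjusted p = 0.0300) and Rag2 (-0.75, adjusted p = 0.0221) fell, as did 0.243% of all genes. Their calls held in 3 and 6 of 11 cases with 1 array left out. Of 9 measured monocyte and macrophage markers, 8 had a CpG change above 0 in Ly-6D+ CLPs, against 51% of all genes. In Ly-6D- CLPs all 9 did, against 49.8%. For CpG in Ly-6D+ CLPs 0 passed, against 0.0271% of all genes higher. In Ly-6D- CLPs 2 passed, against 0.302%, Ccr2 (log2 change 1.57, adjusted p = 0.0101) and Ly6c2 (1.09, adjusted p = 0.0300). The Ccr2 call was lost when replicate 2 of the Ly-6D- CpG or replicate 3 of the Ly-6D- PBS group was left out (adjusted p up to 0.0637), and that of Ly6c2 held in 3 of 11 cases with 1 array left out (adjusted p up to 0.133). When only the groups compared were fitted, none of these 4 calls held. Averaged over both populations, all 9 monocyte and macrophage markers had a CpG change above 0. An unadjusted p under 0.05 was found for 5 of them, against 2516 of 22180. On this average 1 of the 9 passed, Ccr2, against 0.28% of all genes higher. Its averaged log2 change stayed between 1.16 and 1.37 with 1 array left out. The mean of these 9 markers was 6.57 to 6.76 over the Ly-6D- PBS arrays and 7.12 to 7.76 over the Ly-6D- CpG arrays, and 6.34 to 6.55 and 6.49 to 7.06 over the same arrays of Ly-6D+ CLPs. The mean of 6 measured neutrophil markers lay between 9.72 and 10.44 over all arrays. That of 4 plasmacytoid dendritic cell markers lay between 8.93 and 9.11 in Ly-6D+ and between 6.91 and 7.13 in Ly-6D- arrays. Such a mean hides opposite changes of single markers. In Ly-6D- CLPs the CpG changes of these 4 ran from -0.70 to 0.69, with 3 at an unadjusted p under 0.05. In Ly-6D+ CLPs they ran from -0.21 to 0.30, with 0. The mean of 4 conventional dendritic cell markers was 4.80 to 4.86 after PBS and 4.97 to 5.08 after CpG in Ly-6D- arrays. In Ly-6D+ arrays it was 5.14 to 5.30 and 5.12 to 5.21. That of 4 mature B cell markers was 3.31 to 3.44 and 3.52 to 3.86 in Ly-6D- arrays, and 3.69 to 3.85 and 3.50 to 3.82 in Ly-6D+ arrays. Of the neutrophil, dendritic cell and B cell lists 0 passed for CpG in either population. The part of any of these other cell types, or of the lower CLP markers, in the IRG values was not tested.

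The promoters of 4 IRG genes are shown because the family's response to interferon is read through short motifs near the start of transcription. A GAS element, bound by STAT dimers, was searched as TTCNNNGAA, and an ISRE-type element, bound by interferon regulatory factors, as GAAA, any 2 bases and GAAA again, on both strands of the 250 bases before and 50 bases after each annotated start (RefSeq, build GRCm38.p6). The lines give the 120 bases before the start, 5′ to 3′ on the gene's strand, with every match in capitals. They cover chr11:58199436-58199555 (plus strand) for Igtp, chr11:58214857-58214976 (plus) for Irgm2, chr11:48871421-48871540 (minus) for Irgm1 and chr11:58183723-58183842 (plus) for Gm12250.
Igtp: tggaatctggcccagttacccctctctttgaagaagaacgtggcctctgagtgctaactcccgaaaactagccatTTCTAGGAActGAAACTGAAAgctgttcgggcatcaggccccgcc
Irgm2: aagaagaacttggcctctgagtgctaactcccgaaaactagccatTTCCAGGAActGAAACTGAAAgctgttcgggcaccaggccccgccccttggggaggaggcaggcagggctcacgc
Irgm1: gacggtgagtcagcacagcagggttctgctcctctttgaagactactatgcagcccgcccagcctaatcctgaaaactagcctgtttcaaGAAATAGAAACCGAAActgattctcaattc
Gm12250: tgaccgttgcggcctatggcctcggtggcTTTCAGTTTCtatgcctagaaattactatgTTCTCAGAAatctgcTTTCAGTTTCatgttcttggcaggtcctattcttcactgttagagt

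The windows of Igtp and Irgm2 each hold a GAS match followed, after a gap, by an ISRE-type match. In Igtp the GAS match lies 45 to 37 bases before the start and the ISRE-type match 34 to 25 bases before it, and in Irgm2 they lie at 75 to 67 and at 64 to 55. Irgm1 has no match to the GAS letters in its window and 2 overlapping ISRE-type matches, 30 to 21 and 24 to 15 bases before the start. Gm12250 has a GAS match at 61 to 53 and 2 ISRE-type matches on the opposite strand, at 91 to 82 and 46 to 37.

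Over all 32851 windows of this length, 8.3% held the GAS letters and 3.44% the ISRE-type letters. Of the 12 IRG genes with a window, 5 of them among the 7 members, 6 held the GAS letters and 8 the ISRE-type letters. The arrangement in Igtp and Irgm2, a GAS match, 2 bases and an ISRE-type match on the same strand, was defined after these sequences were seen and contains both single motifs. It occurred in 5 windows, 0.0152% of all, and these belonged to Igtp, Irgm2, Tgtp1, Tgtp2 and Gm12185. The IRG genes are duplicated copies and their windows share sequence, up to a run of 61 bases between Igtp and Irgm2 and of 114 bases between Gm12185 and Tgtp2, so the 5 are not independent. The windows of Ifi47, Gm5431, 9930111J21Rik2 and Irgq held neither motif, which says only that these letters are not in these windows.

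**Figure D1:**
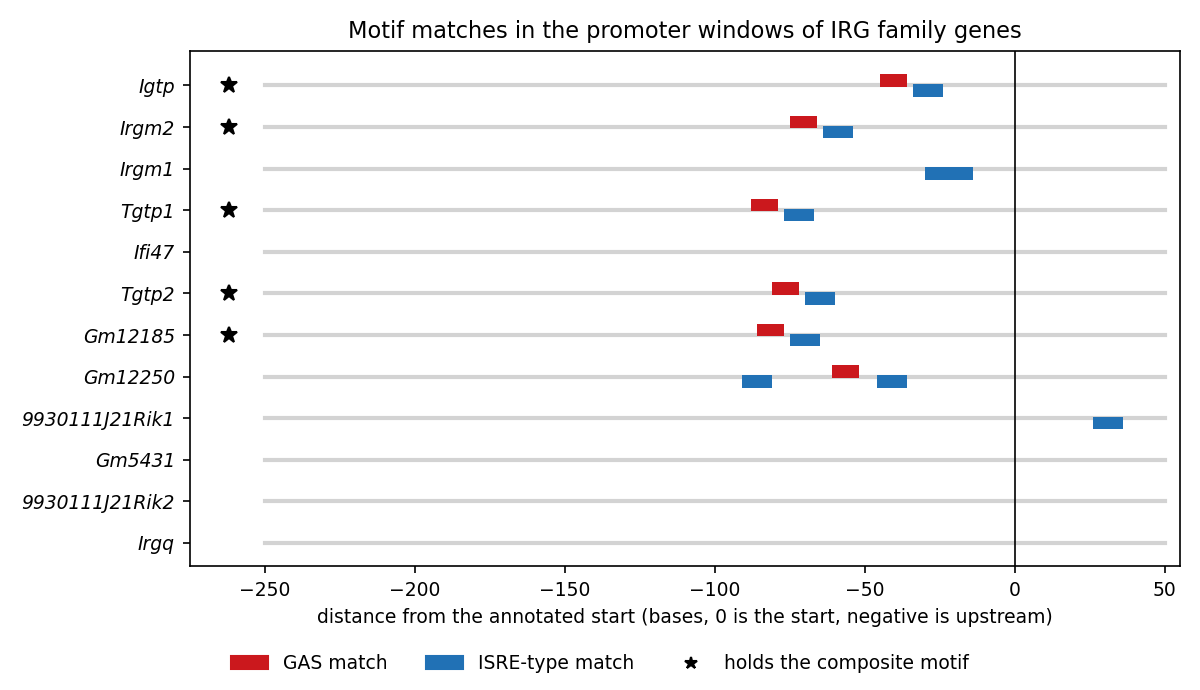
Positions of motif matches in the promoter windows of 12 IRG genes, drawn as distance in bases from the annotated start (0, negative is upstream). Red bars are GAS matches, blue bars ISRE-type matches (overlapping matches merge), and a star marks the 5 windows that hold both in the spacing of Igtp and Irgm2.

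Among the regulators, Igtp was higher after CpG in both populations by about the same amount. Its values in Ly-6D+ CLPs were 9.50, 9.63 and 8.92 after CpG and 8.44 and 8.37 after PBS, and in Ly-6D- CLPs 9.26, 9.60 and 9.17 after CpG and 8.41, 8.36 and 8.16 after PBS. Every CpG array lay above every PBS array, and replicate 3 of the Ly-6D+ CpG group was the lowest CpG array. In the Ly-6D- population Igtp rose 2.05-fold (limma adjusted p = 0.0416), a log2 change of 1.03 with an SE of 0.18. In the Ly-6D+ population the log2 change was 0.95 (SE 0.20) and did not pass (adjusted p = 0.220). Averaged over the populations Igtp rose 1.99-fold (log2 change 0.99, SE 0.13, adjusted p = 0.0167).

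The Igtp calls depended on single arrays. In Ly-6D- CLPs the call held in 3 of 11 cases when 1 array was left out, those without replicate 2 or 3 of the Ly-6D+ CpG group or replicate 3 of the Ly-6D- CpG group, with adjusted p from 0.0194 to 0.154 over all 11. The averaged call was lost without replicate 1 of the Ly-6D+ CpG group and without either Ly-6D+ PBS array (adjusted p up to 0.0895). The log2 change itself stayed between 0.91 and 1.12 in Ly-6D- CLPs and between 0.81 and 1.16 in Ly-6D+ CLPs.

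Irgm2, the second regulator, had higher means after CpG than after PBS in both populations, with smaller differences than Igtp. In Ly-6D+ CLPs its values were 8.36, 8.71 and 8.23 after CpG and 7.91 and 7.55 after PBS, and in Ly-6D- CLPs 8.37, 8.59 and 8.53 after CpG and 8.23, 8.18 and 8.04 after PBS. The CpG and PBS arrays of a population did not overlap, though Ly-6D+ CpG replicate 3 stood level with the highest Ly-6D- PBS array. The log2 change was 0.70 (SE 0.16, adjusted p = 0.283) in Ly-6D+ CLPs, 0.35 (SE 0.14, adjusted p = 0.364) in Ly-6D- CLPs and 0.52 (SE 0.11, adjusted p = 0.0752) on average, and none passed. With a variance trend and robust estimation the average passed (adjusted p = 0.0212).

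Irgm1 is the regulator tied to the survival of blood-forming progenitors, and it did not separate the treatments. It read 7.69, 8.11 and 7.53 after CpG and 7.66 and 7.63 after PBS in Ly-6D+ CLPs, and 7.72, 7.57 and 7.63 after CpG and 7.72, 7.56 and 7.61 after PBS in Ly-6D- CLPs. A single array, Ly-6D+ CpG replicate 2, stood above the others, and all 4 groups overlapped. The log2 change was 0.13 in Ly-6D+ CLPs (95% confidence interval -0.21 to 0.47, adjusted p = 0.965) and 0.01 in Ly-6D- CLPs (-0.29 to 0.31, adjusted p = 0.992). A rise of the size seen for Igtp lay outside both intervals.

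**Figure D2:**
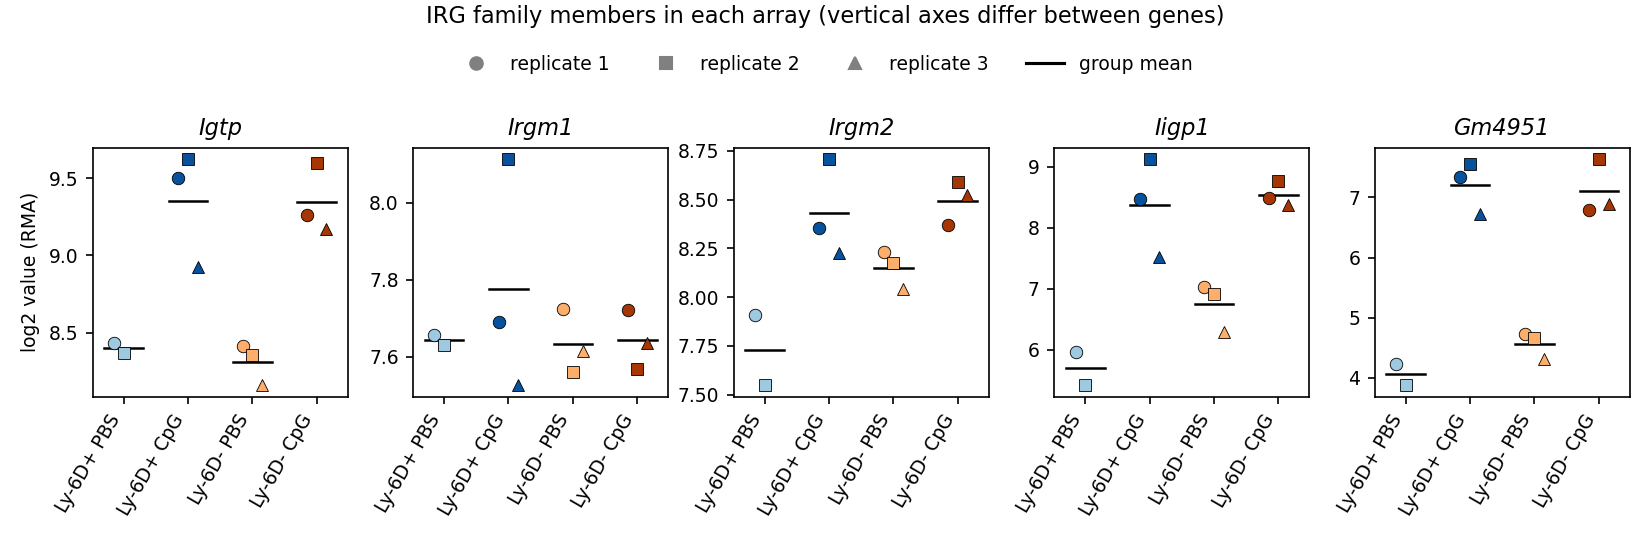
The log2 value of the 5 measured IRG genes in each of 11 arrays, by group, with a marker shape for each replicate number and a bar for the group mean; the vertical axis differs between genes. The CpG arrays of Igtp, Irgm2, Iigp1 and Gm4951 stand above the PBS arrays of their population, and those of Irgm1 overlap them.

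Of the effectors, Gm4951, an uncharacterised IRG gene related to Iigp1, had the highest log2 change among the 5. It read 7.33, 7.56 and 6.72 after CpG against 4.24 and 3.88 after PBS in Ly-6D+ CLPs, and 6.78, 7.64 and 6.88 after CpG against 4.73, 4.67 and 4.31 after PBS in Ly-6D- CLPs. The lowest CpG array, 6.72, stood far above the highest PBS array, 4.73. In the Ly-6D+ population Gm4951 rose 8.84-fold (limma adjusted p = 0.00390), a log2 change of 3.14 with an SE of 0.29. In the Ly-6D- population it rose 5.79-fold (adjusted p = 0.00660), a log2 change of 2.53 with an SE of 0.26. By size of log2 change it was gene 4 of 22180 in Ly-6D+ CLPs and gene 5 in Ly-6D- CLPs. On average it rose 7.16-fold (log2 change 2.84, SE 0.20, adjusted p = 1.74e-04). These 3 calls held in all 11 cases when 1 array was left out, with adjusted p up to 0.0437, 0.0394 and 0.00311. When the fit took only the 2 groups compared, with fewer arrays to estimate the spread, the calls in single populations were lost (adjusted p = 0.241 and 0.0585).

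Iigp1 is the effector whose loading on the Toxoplasma vacuole is best studied. Its values after CpG were 8.47, 9.13 and 7.51 in Ly-6D+ CLPs and 8.48, 8.76 and 8.37 in Ly-6D- CLPs, and after PBS 5.97 and 5.42 in Ly-6D+ CLPs and 7.03, 6.91 and 6.30 in Ly-6D- CLPs. The groups of each population were well apart, and Ly-6D+ CpG replicate 3 was more than 1 unit below the mean of the other two arrays of its group (-1.29). The log2 change was 2.68 in Ly-6D+ CLPs (SE 0.39, adjusted p = 0.0931) and 1.79 in Ly-6D- CLPs (SE 0.35, adjusted p = 0.0544), so it passed in neither. It passed in both with a variance trend and robust estimation (adjusted p = 0.0186 and 0.017) and with array weights (0.0385 and 0.039). Averaged over both populations Iigp1 rose 4.71-fold (log2 change 2.24, SE 0.26, adjusted p = 0.00853), a call lost without Ly-6D+ PBS replicate 1 (adjusted p = 0.0521) or replicate 2 (0.0581). Without Ly-6D+ CpG replicate 3 the change passed in both, at 3.11 (adjusted p = 0.0056) in the Ly-6D+ and 1.79 (0.0275) in the Ly-6D- population. Of the 11 cases with 1 array left out, Iigp1 passed in only this 1 in Ly-6D+ CLPs and in 2 in Ly-6D- CLPs. Its log2 change stayed between 2.30 and 3.11 and between 1.57 and 1.93.

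The members passing were 1 of 5 for CpG in Ly-6D+ CLPs (Gm4951), against 0.0271% of all genes higher, and 2 of 5 in Ly-6D- CLPs (Igtp and Gm4951), against 0.302%. For the average they were 3 of 5 (Igtp, Iigp1 and Gm4951), against 0.28%. The 2 groups of arrays did not overlap, with CpG higher, for 4 of 5 members in Ly-6D+ CLPs, against 10.7% of all genes, and for the same 4 in Ly-6D- CLPs, against 8.5%. The median log2 change of the 5 was 0.95 in the Ly-6D+ and 1.03 in the Ly-6D- population, with 0.00 and -0.00 over all genes. The members were chosen with these results known, so these counts describe the family and are not independent support.

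All 5 members were lowest, among the Ly-6D+ CpG arrays, in replicate 3, as were 34.7% of all genes. The gap to the mean of the other two arrays was -0.64 for Igtp, -0.73 for Gm4951, -0.38 for Irgm1 and -0.31 for Irgm2. Gm12250, Gm4841 and F830016B08Rik, outside the members, were also lowest there, which makes 8 of 13 measured IRG genes. Without this array the log2 changes in Ly-6D+ CLPs became 1.16 for Igtp (adjusted p = 0.0416), 0.80 for Irgm2, 0.26 for Irgm1, 3.11 for Iigp1 and 3.39 for Gm4951, and 3 of 5 members passed instead of 1. Of the 11 cases with 1 array left out, Igtp and Iigp1 passed in Ly-6D+ CLPs in this 1 only, and Gm4951 in all 11.

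Of the 8 further IRG genes measured, 0 passed for CpG in either population by limma, with 3 and 1 at an unadjusted p under 0.05 (1443 and 2664 of all 22180 genes), and 1 passed on average, Gm12250. Their median log2 change was 0.38 in Ly-6D+ CLPs, where 7 of 8 were above 0 against 51% of all genes, and 0.18 in Ly-6D- CLPs, where 4 of 8 were, against 49.8%. Gm12250, the effector that also acts on bacteria freed into the cytosol, read 8.70, 9.10 and 8.65 after CpG and 7.69 and 7.91 after PBS in Ly-6D+ CLPs, and 8.71, 8.73 and 8.75 after CpG and 8.44, 8.38 and 8.25 after PBS in Ly-6D- CLPs. The treatments did not overlap in either population, and the PBS arrays of Ly-6D+ CLPs were the lowest of all. It rose 1.62-fold on average (log2 change 0.69, SE 0.10, adjusted p = 0.0167), from 1.02 in Ly-6D+ CLPs (adjusted p = 0.0739) and 0.37 in Ly-6D- CLPs (adjusted p = 0.258). The averaged call was lost without either Ly-6D+ PBS array and without replicate 1 or 2 of the Ly-6D- CpG group (adjusted p up to 0.0927), and without all arrays numbered 3 (0.0558). Its change in Ly-6D+ CLPs passed with a variance trend and robust estimation (adjusted p = 0.00771) and with the dimmest genes left out (0.0491).

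Gm4841 and F830016B08Rik are effector-type genes of the same subgroup as Iigp1 and Gm4951. In Ly-6D+ CLPs Gm4841 read 6.74, 7.04 and 5.05 after CpG and 4.69 and 3.32 after PBS, a wide spread in both groups, and its log2 change of 2.27 (SE 0.64) did not pass (adjusted p = 0.460). In Ly-6D- CLPs it was 5.73, 7.04 and 5.44 after CpG and 5.50, 5.60 and 4.77 after PBS, which overlapped (log2 change 0.78, adjusted p = 0.659). F830016B08Rik had a log2 change of 1.37 in Ly-6D+ CLPs (SE 0.35, adjusted p = 0.372) and 0.38 in Ly-6D- CLPs (adjusted p = 0.709), with no overlap of the treatments in either. IRG copies are alike in sequence, and whether a probe set reads more than its named copy was not tested; Gm4841 and 9930111J21Rik2 also occur in a probe set with several symbols.

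Of the other effector-type genes none passed. Gm12185, whose promoter window holds the motifs in the spacing of Igtp, had log2 changes of 0.40 and 0.66 in Ly-6D+ and Ly-6D- CLPs (adjusted p = 0.938 and 0.445). Gm5431 had 0.36 and -0.16, and 9930111J21Rik2 had 0.34 and -0.08, with overlapping arrays in each case. Irgc1, a family member expressed in testis, and Irgq, an atypical relative, are not known as interferon-inducible. Irgc1 had log2 changes of -0.34 and -0.00, and Irgq 0.05 and -0.22, none of which passed.

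**Figure D3:**
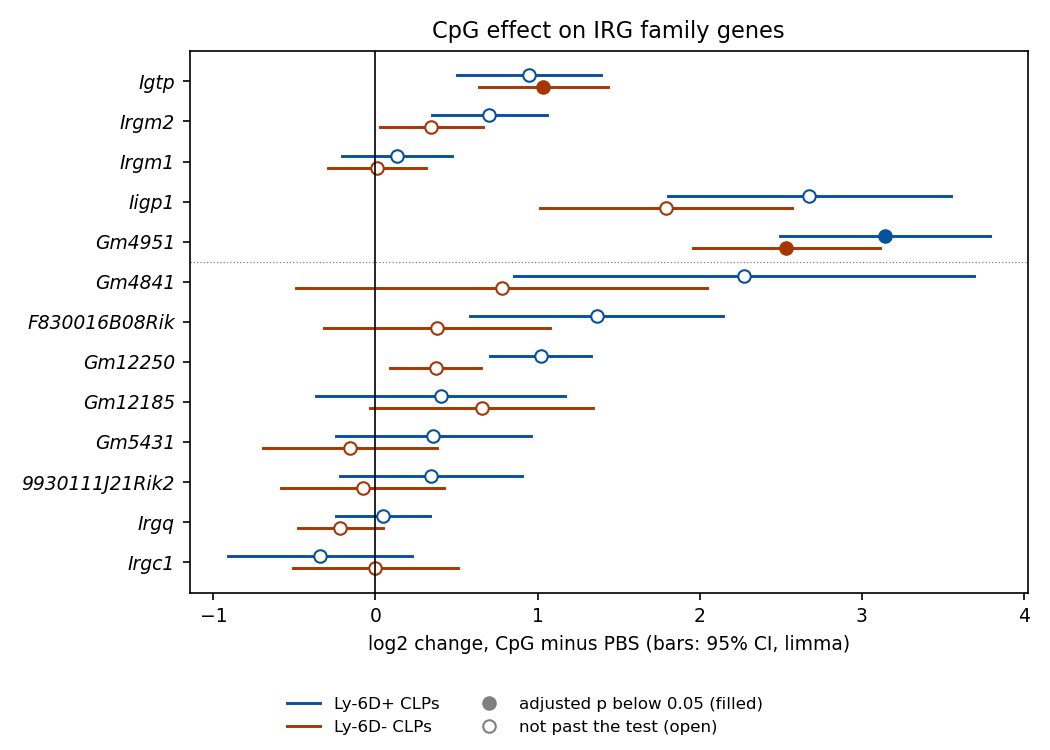
Log2 change, CpG minus PBS, of 13 IRG genes in Ly-6D+ (blue) and Ly-6D- CLPs (red-brown), with 95% confidence intervals from limma; filled points passed the test and the dotted line divides the members from the further genes. Gm4951 stands at 3.14 and 2.53, Igtp at 0.95 and 1.03, and Irgm1 at 0.13 and 0.01.

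Whether CpG acted differently in the populations was tested as the difference of the CpG effects, Ly-6D+ minus Ly-6D-. By limma 0 of 5 members passed, 0 at an unadjusted p under 0.05, and 0 of all 22180 genes passed, against 1413 at an unadjusted p under 0.05. The difference was -0.09 for Igtp (95% confidence interval -0.68 to 0.51), 0.36 for Irgm2 (-0.12 to 0.83) and 0.12 for Irgm1 (-0.33 to 0.58). For the effectors it was 0.88 for Iigp1 (-0.28 to 2.05) and 0.61 for Gm4951 (-0.26 to 1.48). The intervals are wide, for Iigp1 up to 2.05, so the data do not show that the populations responded alike. Gm12250 had a difference of 0.65 (0.23 to 1.07) with an unadjusted p of 0.00631 and an adjusted p of 0.622.

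Between the populations after PBS, 3 of 5 members were lower in every Ly-6D+ array than in every Ly-6D- array, against 14% of all genes. These were Iigp1 (Ly-6D+ minus Ly-6D- -1.05, SE 0.39, adjusted p = 0.288), Gm4951 (-0.51, adjusted p = 0.562) and Irgm2 (-0.42, adjusted p = 0.296). By limma 0 of 5 passed, against 1.18% of all genes passing higher and 0.798% lower. An unadjusted p under 0.05 was found for 2 of 5 and for 2644 of all 22180 genes. Igtp differed by 0.09 and Irgm1 by 0.01, with overlapping arrays. Among the further genes Gm12250 (-0.56, adjusted p = 0.0875), Gm4841 (-1.29, adjusted p = 0.481) and F830016B08Rik (-0.68, adjusted p = 0.500) were also lower in both Ly-6D+ PBS arrays without overlap. The Ly-6D+ PBS group had 2 arrays, so this side rests on few values.

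After CpG the populations overlapped for all 5 members, and the differences lay between -0.17 for Iigp1 and 0.13 for Irgm1. By limma 0 of 5 passed, 0 at an unadjusted p under 0.05, against 1.2% of all genes passing higher and 0.938% lower. Without Ly-6D+ CpG replicate 3 the difference changed sign to 0.26 for Iigp1 and 0.04 for Irgm2, and neither passed. Gm5431 was higher in every Ly-6D+ array, against 7.89% of all genes, but did not pass (0.85, SE 0.24, adjusted p = 0.130), and Irgq was the other of 2 in the 8 further genes (0.25, adjusted p = 0.408). For Gm4951 and Iigp1 the order of the 4 groups was therefore the CpG groups of both populations, which overlapped, then Ly-6D- CLPs after PBS, then Ly-6D+ CLPs after PBS, with no overlap at either of the last steps. Igtp had the CpG groups together and the PBS groups together, and the groups of Irgm1 overlapped at every step.

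**Figure D4:**
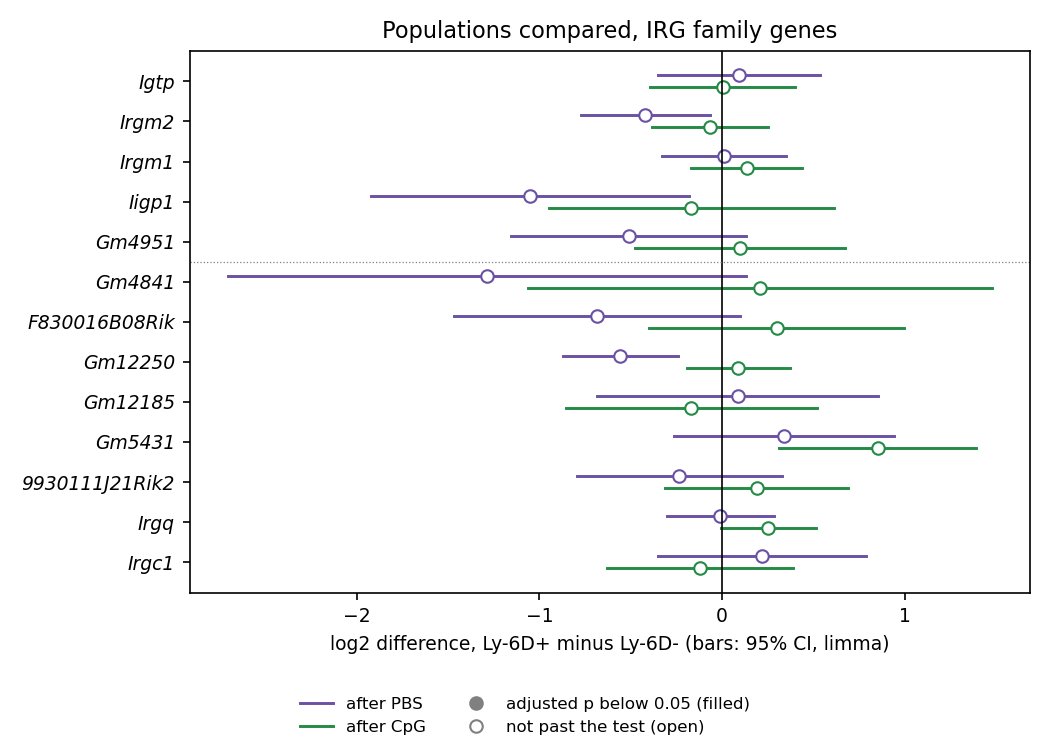
Log2 difference between populations, Ly-6D+ minus Ly-6D-, of 13 IRG genes after PBS (purple) and after CpG (green), with 95% confidence intervals from limma. All points are open because none passed; after PBS, Iigp1 stands at -1.05 and Gm12250 at -0.56, and after CpG Iigp1 stands at -0.17 and Gm12250 at 0.09.

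The pathway that induces IRG genes runs from interferons through their receptors and the Janus kinases to STAT and IRF factors. Of 10 ligands (interferons and the cytokines that induce interferon-gamma), 0 rose. Rises past the test made up 0.0271% of all genes in Ly-6D+ and 0.302% in Ly-6D- CLPs. Il18, an inducer of interferon-gamma, fell by 0.70 on average (log2, SE 0.09, adjusted p = 0.0159), and Il12a, a subunit of interleukin-12, fell in the Ly-6D- population by 0.73 (SE 0.13, adjusted p = 0.0444). Falls past the test made up 0.243% of all genes in Ly-6D- CLPs, 0.203% on average and 0% in Ly-6D+ CLPs. Ifng itself read 3.50, 2.90 and 3.33 in Ly-6D+ CLPs after CpG and 2.46 and 2.74 after PBS (log2 change 0.64, adjusted p = 0.503). These arrays did not overlap, with CpG higher, as for 10.7% of all genes. In Ly-6D- CLPs the Ifng change was -0.11, with overlap. The group means of Ifng, 2.60 to 3.24, were all below 3.252, the upper limit of the dimmest 33.3% of genes. The mean of 8 measured NK-cell and T-cell markers, a list that holds Ifng, lay between 3.74 and 3.84 in Ly-6D+ CLPs after CpG and between 3.41 and 3.57 in the other three groups, below the array medians in every case. Its part in the IRG values was not tested.

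Of 7 receptor and kinase genes, 0 passed by limma in either population, with 1 and 2 at an unadjusted p under 0.05 (1443 and 2664 of all 22180 genes). Ifngr1, the ligand-binding chain of the interferon-gamma receptor, had log2 changes of -0.25 and -0.10 in Ly-6D+ and Ly-6D- CLPs, and Ifngr2, its partner chain, -0.13 and 0.28. The kinase Jak1 had -0.07 and -0.25, and Jak2 had 0.46 and 0.38 (adjusted p = 0.678 and 0.370). The medians of the list were -0.03 and 0.06.

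Among 11 measured transcription factors and partners, 1 rose in Ly-6D- CLPs and 2 on average, as did 0.302% and 0.28% of all genes. Nlrc5, which activates MHC class I genes, rose in the Ly-6D- population by 0.65 (log2, SE 0.11, adjusted p = 0.0444) and by 0.50 on average (adjusted p = 0.0411). Ciita, its class II counterpart, rose by 1.03 on average (SE 0.14, adjusted p = 0.0167). Irf1, a first-wave target of STAT signalling, had changes of 0.56 (adjusted p = 0.295) and 0.16, Irf8 had -0.10 and 0.39 (adjusted p = 0.0989), and Irf7 had -0.32 and -0.13. Of 11 feedback inhibitors, Socs3 rose on average (0.61, SE 0.11, adjusted p = 0.0471), and Socs1, the inhibitor of Janus kinases, had changes of 0.58 and 0.07 without passing.

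The calls of these single genes were sensitive to the arrays. The Nlrc5 call in Ly-6D- CLPs held only without Ly-6D- PBS replicate 1, and that of Il12a only without Ly-6D- CpG replicate 3, among the 11 cases with 1 array left out. On average Il18 kept its call in 8 cases (lost without either Ly-6D+ PBS array or Ly-6D- CpG replicate 1), and Ciita in 6 (lost in those cases and, besides, without replicate 1 of the Ly-6D+ CpG or replicate 2 of the Ly-6D- CpG group). Socs3 kept its call in 2 cases, without replicate 3 of the Ly-6D- CpG or PBS group, and Nlrc5 in 1, without Ly-6D- PBS replicate 1. The log2 changes of these 5 genes kept their sign in all 11.

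Of the GBPs, all 10 measured GBPs had a log2 change above 0 in Ly-6D+ CLPs and 7 of 10 in Ly-6D- CLPs, with medians of 0.67 and 0.53. By limma 0 passed in either population, with 4 at an unadjusted p under 0.05 in each (1443 and 2664 of all 22180 genes), and Gbp7 rose on average (0.78, SE 0.11, adjusted p = 0.0184), a call kept in 5 of 11 cases (lost without any of Ly-6D+ CpG replicate 1, both Ly-6D+ PBS arrays, replicates 1 and 2 of the Ly-6D- CpG group and replicate 1 of the Ly-6D- PBS group). Gbp3 had 0.56 and 0.96, Gbp5 0.78 and 1.41, and Gbp9 1.09 and 0.13, none past the test. Between populations, 2 of 10 GBPs passed after PBS and 3 of 10 after CpG, all higher in Ly-6D+ CLPs, as did 1.18% and 1.2% of all genes: Gbp4 was higher in Ly-6D+ CLPs by 1.57 after PBS (adjusted p = 0.0207) and 1.55 after CpG (adjusted p = 0.0106), and Gbp8 by 1.49 and 1.55 (adjusted p = 0.0401 and 0.0164) and Gbp9 after CpG by 1.55 (adjusted p = 0.0160). Whether the families differ in this was not tested. In the other lists Irf8 (0.72 after PBS, adjusted p = 0.00404) and Stat2 (0.77 after CpG, adjusted p = 0.00920) were higher in Ly-6D+ CLPs. Il18 (-1.08 after CpG, adjusted p = 0.00111), Oasl2 (-1.71 after PBS and -0.96 after CpG, adjusted p = 0.00385 and 0.0464) and Ddx58 (-1.12 after PBS, adjusted p = 0.00618) were lower there.

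The autophagy genes that IRG loading needs stayed close to 0. Of 12 conjugation genes, 0 passed by limma in either population, against 0.0271% and 0.302% of all genes higher in Ly-6D+ and Ly-6D- CLPs. An unadjusted p under 0.05 was found for 0 of the 12 in either, against 1443 and 2664 of all 22180 genes. In a list this short, counts of 0 say little. The log2 changes of the 12 lay between -0.24 and 0.28 in Ly-6D+ CLPs and between -0.20 and 0.24 in Ly-6D- CLPs. Atg5 had 0.25 and 0.12, Atg7 -0.10 and 0.18, and Atg16l1 0.03 and 0.03. Of 9 autophagy receptors and ubiquitin-linked genes 0 passed, and the medians were 0.00 and -0.07. An unadjusted p under 0.05 was found for 0 and 1 of the 9 (1443 and 2664 of all 22180 genes).

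The list of genes known chiefly as type I interferon-stimulated held no rise past the test. Of all genes, 0.0271% passed higher in Ly-6D+ and 0.302% in Ly-6D- CLPs, so a count of 0 says little about the list. Of 16 measured, 0 rose, 8 of 16 were above 0 in Ly-6D+ CLPs (median -0.00), against 51% of all genes, and 2 of 16 in Ly-6D- CLPs (median -0.40), against 49.8%. An unadjusted p under 0.05 was found for 1 and 8 of them, and for 1443 and 2664 of all 22180 genes. Ddx58, the cytosolic RNA sensor RIG-I, fell in the Ly-6D- population by 0.82 (log2, SE 0.15, limma adjusted p = 0.0465), as did 0.243% of all genes. With 1 array left out, this call held only without Ly-6D- CpG replicate 3. Isg15 had changes of 0.10 and -0.48, Ifit3 -0.35 and -0.51, and Mx1 -0.40 and -0.51, none past the test. Zbp1, a sensor of Z-form nucleic acids, had the highest change in the Ly-6D- population, 0.63 (adjusted p = 0.359).

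**Figure D5:**
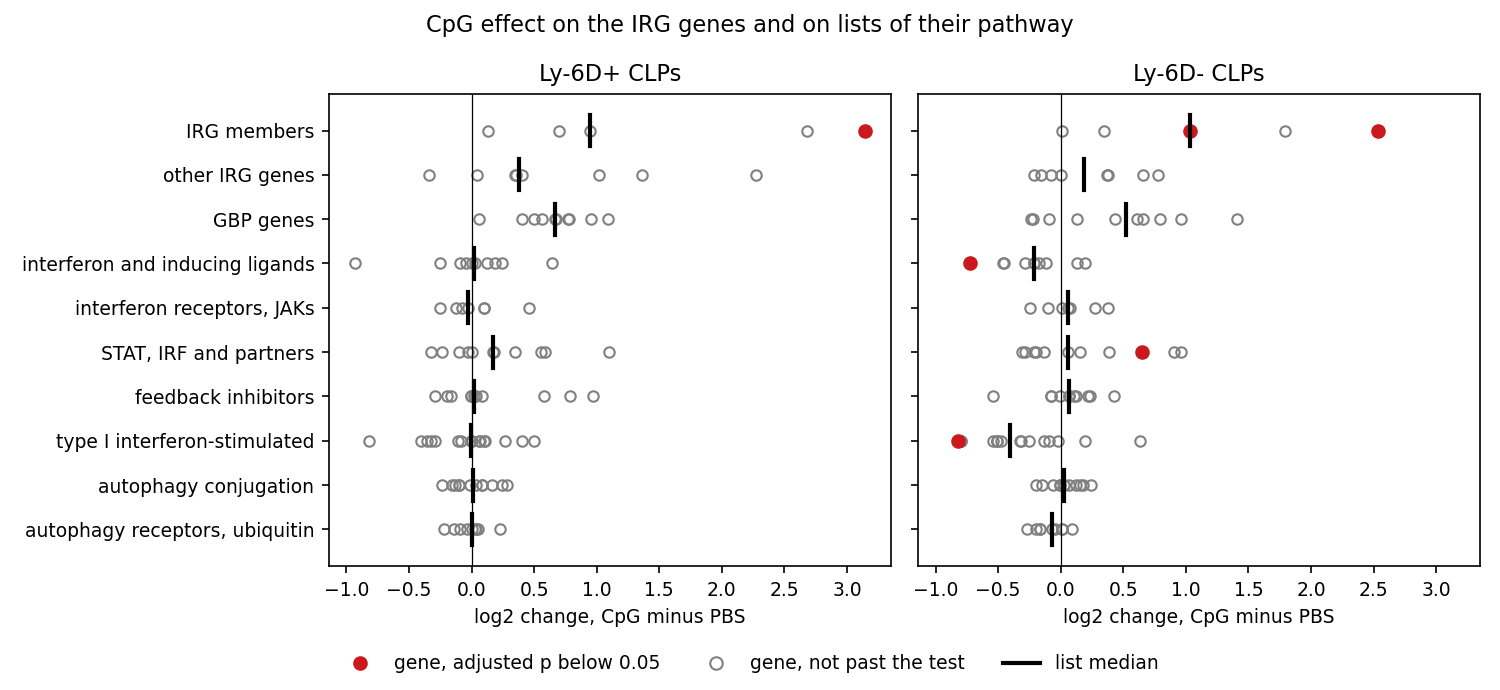
Log2 change, CpG minus PBS, of each measured gene (points) in the IRG members and in 9 lists around them, for Ly-6D+ and Ly-6D- CLPs, with a bar at the list median. Red points passed the test; the medians of the members stand at 0.95 and 1.03, those of the GBPs at 0.67 and 0.53, and those of autophagy conjugation at 0.01 and 0.03.

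Among the genes ranked outside the members, those whose profile over the 11 arrays was most like the mean of the 5 members were MHC class II genes. Symbols starting with Gm and a number, Mir, Snor, n-R5 or LOC, or holding Rik, were passed over in this ranking. The measure was Pearson's r with the mean of the members' values, each centred on its own mean, and all arrays, treated and control, entered. H2-Aa had r = 0.981 (Spearman's rho = 0.991), H2-Eb1 0.973 (0.964) and H2-Ab1 0.968 (0.909). Samhd1, a dNTP hydrolase that restricts viruses, had 0.956, Fcgr1, the high-affinity IgG receptor and a monocyte marker, 0.943, Rtca, an RNA cyclase, 0.937, Gbp7 0.932 and H2-K1, a class I heavy chain, 0.931. These r values contain the difference between treatments, and the arrays share their processing, so they are given as a description. H2-Aa, for example, had group means of 9.72 ± 0.38 (SD, n = 3) and 6.52 ± 0.12 (SD, n = 2) after CpG and PBS in Ly-6D+ CLPs and 9.61 ± 0.20 and 7.19 ± 0.21 (SD, 3 arrays each) in the Ly-6D- population. As for Gm4951, its CpG groups overlapped and its PBS groups stood below them.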

How the data were processed

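Per the submitters' processing notes, the authors used Partek and RMA to make the log2 expression values they deposited. Per the labels' protocols, 5 ng of RNA was amplified to SPIA cDNA and 5 µg of it was labelled. Software versions and the build behind the annotation are not given. Depth has no meaning for arrays, and detection values were not used here.

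Of 41345 probe sets, the 23521 with exactly 1 symbol in the supplied probe table were used, 1814 had several and 16010 none. A gene with several single-symbol probe sets was represented by the one with the highest mean, for 1082 genes. Limma 3.58.1 in R 4.3.3 fitted a mean for each of 4 groups to all 11 arrays and 22180 genes (eBayes, 7 residual and 3.48 prior degrees of freedom), and 6 comparisons were drawn. Pearson correlations of deviations from group means were over 0.1 for 2 of 15 pairs of arrays with the same replicate number (-0.034 to 0.176). Of 30 pairs with different numbers, 0 were over 0.1 (-0.127 to 0.091). Both pairs over 0.1 joined arrays numbered 3 (Ly-6D+ CpG with Ly-6D- CpG and with Ly-6D- PBS). Whether arrays numbered 3 share an effect was not tested. The labels give no pairing, so the main fit left the numbers out, and fits with them as a block are given below. The fit was tested on simulated data. The members, the gene lists and the tests were chosen with earlier results of these data known. Named genes were the members, the further IRG genes, list genes past the test in a comparison (up to 4), Irf1, Ifngr1, Ifngr2, Jak1, Jak2, Socs1, Irf8, Ifng and Irf7, and the 8 genes most like the members; a few others were named for their role and chosen after their values were seen. Another gene that the rule always names is not reported here, and cell type markers past the test between populations are not listed. Promoter windows came from RefSeq tables (GRCm38.p6) and were matched by symbol for 5 of 7 members. Tables and figures were made in Python 3.11.15 (pandas 2.3.3, matplotlib 3.10.9).

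The results were recomputed from each probe set alone, from the mean over the probe sets of a gene, without the dimmest 33.3% of genes, with a variance trend and robust estimation, with array weights, from the groups of a comparison only, after another quantile normalisation or median centring, with the replicate number as a fixed or random block, and without each array, or all arrays numbered 3.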

Additional observations from a re-analysis of the deposited data

How the results depend on the processing

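The count of members past the test in Ly-6D+ CLPs, 1 of 5, became 2 (Iigp1 and Gm4951) with a variance trend and robust estimation, with array weights, with the replicate number as a fixed block and without the arrays numbered 3, and 0 when only the groups compared were fitted. In Ly-6D- CLPs the count of 2 became 0 when only the groups compared were fitted, and 3 with Iigp1 added under the replicate block (adjusted p = 0.0327), the dimmest genes left out, a variance trend, array weights and quantile normalisation. On average the count of 3 became 4 with a variance trend, where Irgm2 passed (adjusted p = 0.0212). The random block had a consensus correlation of 0.074, and 7 of 11 arrays deviated most like arrays of their own number. The replicate block also ended the Nlrc5 and Ddx58 calls in Ly-6D- CLPs and that of Socs3 on average. Fitting only the groups compared ended the calls of Il12a, Nlrc5 and Ddx58 in Ly-6D- CLPs (adjusted p = 0.186, 0.186 and 0.197). Without arrays numbered 3, Nlrc5 in Ly-6D- CLPs (0.149) and the averages of Gm12250 (0.0558), Il18 (0.0756) and Nlrc5 (0.0969) no longer passed. The averages of Socs3 from the mean over probe sets (0.126) and Nlrc5 after centring (0.0534), and of both with the random block (0.0616 and 0.0532), did not pass either. With 1 array left out, the count ranged from 1 to 3 for CpG in either population and on average, and stayed 0 for the difference of effects and both population comparisons; without a Ly-6D+ PBS array, the lone array left is assumed to vary like the other groups.

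No value whose sign turned was past the test. For CpG in Ly-6D- CLPs Irgc1 (-0.00) became 0.0054 with array weights, 0.0229 after quantile normalisation, 0.0259 after centring and 0.0078 without arrays numbered 3, and Irgm1 (0.01) became -0.0226 after quantile normalisation. The difference of effects for Igtp (-0.09) became 0.0372 with the replicate block and 0.1151 without arrays numbered 3. After PBS, Igtp (0.09) became -0.0325 with the replicate block, and Irgm1 (0.01) -0.0358 with it and -0.0035 after quantile normalisation. After CpG, Irgm2 (-0.06) became 0.0528 and Iigp1 (-0.17) 0.1784 without arrays numbered 3. With 1 array left out, signs turned over these ranges of log2 values. For CpG in Ly-6D+ CLPs Irgm1 ranged from -0.0356 to 0.2588 and Irgc1 from -0.853 to 0.1682. In Ly-6D- CLPs the ranges were -0.0309 to 0.0551 for Irgm1, -0.2935 to 0.1127 for 9930111J21Rik2 and -0.1552 to 0.1266 for Irgc1. On average they were -0.0131 to 0.1341 for Irgm1, -0.0748 to 0.1926 for Gm5431, -0.0349 to 0.3007 for 9930111J21Rik2 and -0.4272 to 0.0834 for Irgc1. The difference of effects ranged from -0.2253 to 0.1258 for Igtp and from -0.0449 to 0.2495 for Irgm1. Between populations after PBS Irgm1 ranged from -0.0264 to 0.0559. After CpG the ranges were -0.133 to 0.2182 for Igtp, -0.0347 to 0.2597 for Irgm1, -0.2043 to 0.0374 for Irgm2, -0.5459 to 0.2616 for Iigp1 and -0.0773 to 0.3681 for Gm4951. The cause was not tested.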

Other observations

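The members also varied together within groups. After the group means were subtracted, Pearson's r over the 11 arrays was 0.931 between Igtp and Gm4951 (Spearman's rho 0.891), 0.909 between Igtp and Iigp1 (0.836), 0.873 between Irgm2 and Iigp1 (0.882) and 0.85 between Iigp1 and Gm4951 (0.864). It was 0.793 between Irgm2 and Gm4951 (0.864) and 0.701 between Igtp and Irgm2 (0.682). The largest deviations of the members' mean were both in the Ly-6D+ CpG group, 0.40 in replicate 2 and -0.445 in replicate 3, and the others lay between -0.20 and 0.21. Replicate 3 was also lowest in the Ly-6D- PBS group (-0.1961) and, just below replicate 1 (-0.1022), in the Ly-6D- CpG group (-0.1065). Replicate 2 was the highest in both CpG groups, and replicate 1 in both PBS groups. Whether an effect shared by arrays of the same number enters these r values was not tested. Irgm1, the gene whose groups overlapped, had r between 0.402 and 0.751 with the other 4 and rho between 0.255 and 0.582. The points share their arrays and their processing, and subtracting 4 group means leaves fewer free values than arrays, so no p is given.

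The genes most like the members in these within-group deviations were not the MHC class II genes. Ifih1, the RNA sensor MDA5, had r = 0.972 (rho = 0.936) and Ticam2, an adaptor of Toll-like receptor 4, had 0.968 (0.973). Epb41l4aos had 0.95, Isoc2b 0.942, Hivep2 0.942, Tfap2c 0.941, Cul4b 0.94 and Dctn2 0.937. Ifih1 had log2 changes after CpG of -0.11 in the Ly-6D+ and -0.09 in the Ly-6D- population, so it followed the members from array to array within groups without the difference between treatments. The same symbols were passed over as in the ranking across arrays. With so many genes ranked and few free values, high r values can arise without a relation.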
